A study of Mus musculus with 3 samples.

Results

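The genes described here encode cytosolic heat shock proteins, their J-protein partners and the subunits of the cytosolic chaperonin. They were taken by symbol from the GENCODE M21 annotation of the mouse genome (mm10), as the protein-coding genes whose symbols belong to the Hspa, Hspb, Hspd, Hspe, Hsph, Hsp90a, Dnaja, Dnajb, Dnajc and Cct families, with Tcp1. The endoplasmic reticulum genes Hspa5, Dnajb9, Dnajb11 and Dnajc3 were left out. The rule gave 78 of 22028 protein-coding genes, in 10 classes. The rule used symbols and no measured value. It also took at least 8 genes whose proteins are known from the mitochondrion (such as Hspd1, Hspe1 and Hspa9). At least 5 more are known from the endoplasmic reticulum (such as Dnajc10 and Hspa13). The label "cytosolic" thus fails for at least these 13 members. The rule missed the subunit gene Cct6a, which this annotation types as a processed transcript. Cct6a is shown beside the members and counted with them only where stated.

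The samples were activated regulatory T cells, a class of CD4 T cell that restrains other immune cells, taken as primary cells from a male mouse of 3 weeks. Poly(A)-selected RNA was sequenced in 3 libraries, labelled technical replicates 1, 2 and 3 of 1 biological replicate and called libraries 1, 2 and 3 below. There was 1 group, with no untreated, resting or other control, and neither how the cells were activated nor at which step the 3 libraries part is given in the labels. Every SD below therefore measures the spread between these libraries, and every p-value sets their differences against the counting noise of reads. Neither measures a spread between animals or conditions.

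Molecular chaperones bind proteins that are not yet folded, or that have lost their fold, and keep them from aggregating. HSP70 proteins do this in cycles of ATP hydrolysis that J proteins start and nucleotide exchange factors, among them the HSP110 proteins, end. HSP90 completes clients such as kinases and steroid receptors with the help of cochaperones, and the chaperonin CCT folds actin and tubulin inside a double ring of different subunits. The inducible genes among them are targets of heat shock factor 1 (HSF1), which binds inverted repeats of the 5-base unit nGAAn, the heat shock element. T cells that leave rest raise protein synthesis and depend on these folding systems.

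The 3 libraries held 30362256, 28419259 and 31959927 reads on genes. The 7 regulatory T cell markers, Foxp3 and Il2ra among them, were all detected (over 1 TPM, reads per transcript length scaled to the library's total, in every library). The libraries nevertheless stood apart in genes of other cells and of the cell cycle. Globin and other erythroid genes, 7 of 7 highest in library 1, summed to 14030, 1180 and 810.8 TPM in libraries 1, 2 and 3. Of 10 proliferation genes, 9 were highest in library 1 and 9 lowest in library 2. Of 6 neutrophil markers, 0 were detected, and 2 of 6 dendritic cell, 3 of 6 monocyte and macrophage, 5 of 6 B cell and 4 of 5 CD8 T and NK cell markers were detected. The summed level of the dendritic list was 596.5, 164.4 and 377.9 TPM in libraries 1, 2 and 3, that of the monocyte and macrophage list 100.3, 44.53 and 65.16 TPM and that of the B cell list 376.3, 285.1 and 374.6 TPM. The neutrophil list summed to 10.63, 0.850 and 1.04 TPM, with S100a8 and S100a9 called and highest in library 1 and Elane listed at 0. The CD8 T and NK cell list summed to 48.77, 52.87 and 47.65 TPM, with Ncr1 listed at 0. What part these cells have in the library differences below was not tested. In such bulk libraries, fewer cells of a type and less RNA per cell cannot be told apart.

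A heat shock element in its strict form has 3 units in alternating direction. The promoters of the members (RefSeq, GRCm38.p6, from 250 bases before to 50 after each annotated start) were searched on both strands for GAANNTTCNNGAA and its reverse complement TTCNNGAANNTTC, which fix 9 letters. Only 63 of the 78 members had a promoter in the table. The others, Hspa8, Hsp90aa1 and Hsp90ab1 among them, were not searched. All 9 letters were found in 4 of the 63 (6.35%), against 179 of 27025 genes (0.662%). With 8 or more letters the shares were 17 of 63 members (27.0%) and 8.15% of all genes. A match describes letters only and does not show that a factor binds. The stretches below are examples chosen after their values were seen: the printable ones with all 9 letters, and 4 of those with 8. Each is printed in the direction of its gene, with the matched element in capitals.

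Hspd1, chr1:55088035-55088095, minus strand: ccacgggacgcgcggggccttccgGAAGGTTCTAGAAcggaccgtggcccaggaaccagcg
Hspe1, chr1:55088040-55088100, plus strand: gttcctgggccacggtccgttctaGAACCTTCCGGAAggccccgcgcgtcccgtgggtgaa
Dnajb6, chr5:29735828-29735888, plus strand: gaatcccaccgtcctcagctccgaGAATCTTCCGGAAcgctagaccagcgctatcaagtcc
Dnaja1, chr4:40722315-40722375, plus strand: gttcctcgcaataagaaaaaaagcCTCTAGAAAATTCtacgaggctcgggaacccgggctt
Hspa1a, chr17:34972234-34972294, minus strand: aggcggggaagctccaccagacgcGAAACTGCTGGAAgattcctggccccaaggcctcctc
Hspa1b, chr17:34959316-34959376, minus strand: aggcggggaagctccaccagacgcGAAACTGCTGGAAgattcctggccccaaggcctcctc
Cct2, chr10:117063381-117063441, minus strand: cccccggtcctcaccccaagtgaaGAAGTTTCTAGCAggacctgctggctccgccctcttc

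Hspd1 and Hspe1, the genes of HSP60 and of its lid HSP10, start head to head on chromosome 1, and their stretches overlap, read on opposite strands and offset by 5 bases. The element marked in each held all 9 letters. The elements of both genes differ but overlap, so part of the same DNA counts for both. The element of Dnajb6 also held all 9. Hsph1, the fourth member with all 9, had its element after the start and is not printed. The stretches of Hspa1a and Hspa1b were identical to each other and matched 8 of 9 letters, as did those of Dnaja1 and Cct2.

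Detection meant a level of at least 1 TPM in each library. That held for 58 of the 78 members (74.4%), against 48.1% of all protein-coding genes. The median member stood at 21.97 TPM, against 1.173 TPM over all protein-coding genes, and among detected genes the medians were 48.50 TPM for members and 30.05 TPM for all. The members took 0.624% of all TPM in library 1, 0.643% in library 2 and 0.663% in library 3 (0.643% ± 0.0193, SD, n = 3 technical libraries). The share was highest in library 3 and lowest in library 1. It was 0.653% as the mean of libraries 2 and 3, without library 1 and its erythroid RNA.

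Few genes carried most of this output. Hspa8 alone took 19.0% ± 1.18 of the members' TPM (SD, n = 3), the 5 highest members took 40.5% ± 2.40 and the 20 highest 80.8% ± 1.47. By class, the chaperonin genes took 25.3% ± 1.10, the 42 J proteins together 34.9% ± 1.71, the HSP70 genes 22.7% ± 1.11 and the HSP90 genes 9.84% ± 0.154. The small heat shock proteins, holdases that bind unfolded proteins without ATP, took 0.281% ± 0.0386.

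**Figure D1:**
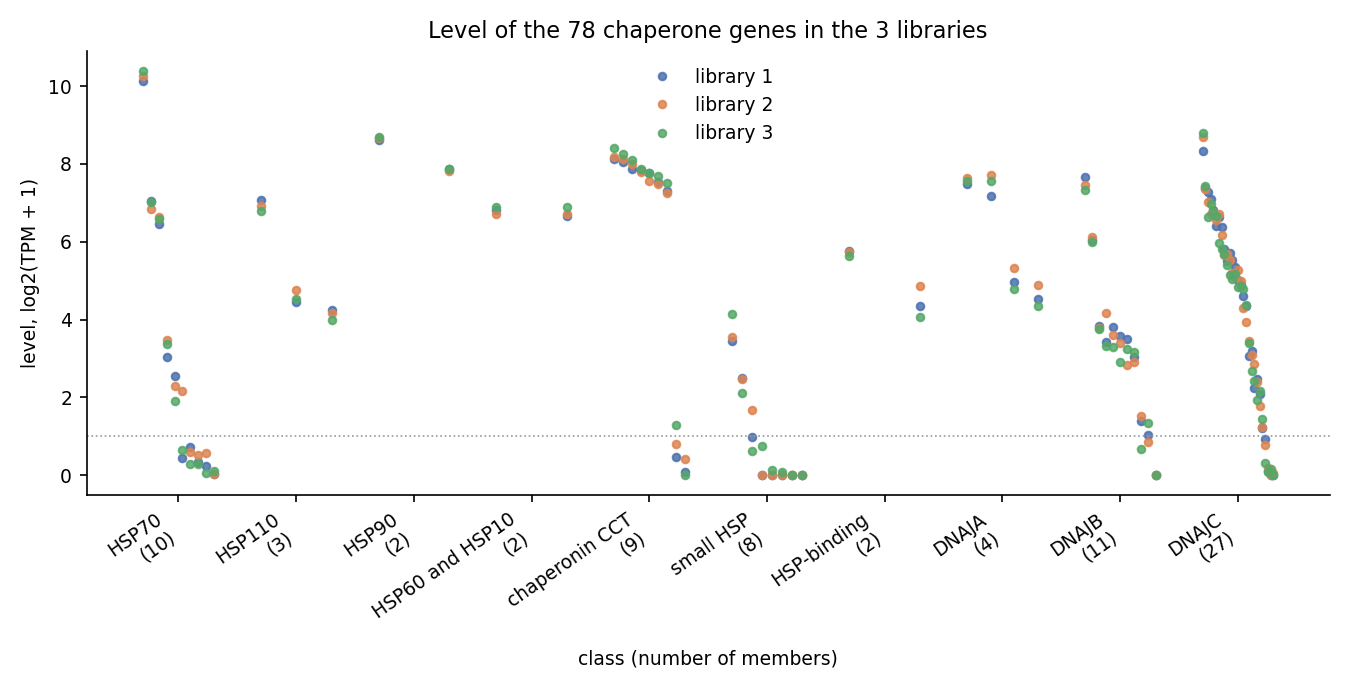
Level of each of the 78 genes, as log2(TPM + 1), by class (number of members in brackets) in libraries 1, 2 and 3. Each column of points is 1 gene, classes run from their highest gene to their lowest, and the dotted line marks 1 TPM. Hspa8 stands alone at the top of the HSP70 class, the 7 detected chaperonin genes lie close together, and most small heat shock genes lie at or near 0.

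Differences between libraries were tested per gene with a chi-square test of the 3 estimated read counts against library sizes scaled by the trimmed mean of M values (TMM). Genes averaging at least 10 reads entered, and p-values were adjusted over all of them (Benjamini-Hochberg). Of all genes tested, 79.8% differed at an adjusted p under 0.05, and 57 of the 67 members tested did (85.1%), a share near that background. A difference of 1.5-fold or more between the highest and the lowest library was called in 42.9% of all genes and in 20 of the 67 members (29.9%), and the median ratio of highest to lowest was 1.32 in members and 1.5 in all genes. That count of 20 was 16 without library 1 (30.2% of all genes), 9 without library 2 (32.6%) and 6 without library 3 (18.8%). The libraries thus differed by more than counting noise in most genes, and the median ratio was lower among members, whose levels were also higher. By CPM, reads scaled to the TMM library sizes, 15 members were highest in library 1 (32.8% of all genes), 23 in library 2 (32.6% of all genes) and 29 in library 3 (34.5% of all genes). By deposited TPM, the numbers were 25, 21 and 21.

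The constitutive HSP70 gene Hspa8 (chromosome 9, 40800984 to 40810087, plus strand), whose product Hsc70 serves folding in unstressed cells, was the highest member at 1114, 1227 and 1339 TPM in libraries 1, 2 and 3 (1227 ± 112.3, SD, n = 3), rank 73 among protein-coding genes. Library 3 was highest and library 1 lowest, 1.29-fold apart by CPM, with the largest chi-square statistic of any member (1208, 2 degrees of freedom, adjusted p = 2.591e-261). Hspa8 stood 2.83, 3.04 and 3.22 times above Hsp90ab1 by TPM in libraries 1, 2 and 3, a log2 ratio of TPM + 1 of 1.60 ± 0.09. One limit touches its level: a second, smaller count table of the same libraries held only 1.37% as many reads for Hspa8 as the main table, against a median of 39.4% over genes of 1000 reads or more. In that smaller table the library 3 difference was -0.05 on the log2 scale, against 0.30 in the main table, and was not called (adjusted p = 0.272).

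The stress-inducible HSP70 genes Hspa1a and Hspa1b lie next to each other on chromosome 17 and are near-identical copies, so how reads were split between them is uncertain. Hspa1b was at 0.370, 3.44 and 0.570 TPM, and Hspa1a at 0.180, 0.490 and 0.0400 TPM. Added together, the pair had 29.58, 192.1 and 37.39 estimated reads, or 0.986 CPM (95% Poisson interval 0.675 to 1.43), 6.92 CPM (5.97 to 7.96) and 1.13 CPM (0.787 to 1.54). These exact intervals cover counting error only. Library 2 stood 7.02-fold above library 1 and 6.13-fold above library 3, and the intervals of libraries 1 and 3 overlapped each other but not that of library 2. Hspa1b itself differed between libraries (adjusted p = 7.316e-46, chi-square test), with the largest ratio of highest to lowest among members with 50 reads or more (9.49-fold). The smaller table showed the same order, with 2, 24 and 3 reads for the pair. Even in library 2 the pair was far below the constitutive gene: Hspa8 stood 357 times above Hspa1b there and 3012 times above it in library 1.

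Of the other HSP70 genes, Hspa14, a ribosome-associated member, was at 87.31, 97.83 and 94.89 TPM, and Hspa9, the mitochondrial HSP70, at 130.8, 113.5 and 129.0 TPM. Hspa9 was lowest in library 2, where Hspa14 was highest by TPM. By CPM, both genes were highest in library 3. Hspa13, found in the endoplasmic reticulum, was at 7.140, 10.07 and 9.360 TPM, lowest in library 1. The testis-enriched Hspa2 was at 4.850, 3.860 and 2.740 TPM. Hspa1l, Hspa12a and Hspa12b stayed under 1 TPM in every library, and neither Hspa1l (adjusted p = 0.172) nor Hspa12a (adjusted p = 0.705) passed the chi-square test. In all, 5 of the 10 HSP70 genes were detected, and 7 of the 9 tested differed between libraries, against 48.1% of coding genes detected and 79.8% of all genes called.

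The 3 HSP110 genes encode exchange factors that release ADP from HSP70. Hspa4 was the main form at 133.6, 120.7 and 109.2 TPM. It stood above Hsph1 by 2.34 ± 0.24 and above Hspa4l by 2.79 ± 0.03 on the log2(TPM + 1) scale (SD, n = 3), both larger than the spread. On transcripts annotated as protein-coding alone, the gap to Hsph1 was smaller. These summed to 37.13 TPM ± 1.58 for Hspa4 and 19.08 TPM ± 3.44 for Hsph1. Hsph1, the heat-inducible form, was at 32.27, 53.37 and 46.03 CPM, 1.65-fold between library 1, its lowest, and library 2, its highest (adjusted p = 3.747e-33, chi-square test). In libraries 2 and 3 alone its log2 difference was 0.21 (adjusted p = 0.000118). Hspa4l was at 18.02, 17.04 and 14.93 TPM.

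Both HSP90 genes were expressed at steady levels. The constitutive Hsp90ab1 was at 393.4, 403.6 and 415.2 TPM and the inducible Hsp90aa1 at 232.2, 224.1 and 231.0 TPM. Hsp90ab1 stood 1.69, 1.80 and 1.80 times above Hsp90aa1 (log2 ratio 0.82 ± 0.05), so the order was the same in every library. Their highest and lowest libraries were 1.04-fold and 1.12-fold apart by CPM, both in favour of library 3 and both called by the chi-square test (adjusted p = 0.00155 and 2.839e-11). That direction turned in the smaller table, with log2 differences of -0.06 for Hsp90ab1 and -0.16 for Hsp90aa1, and, after a trend with GC content and length was removed, also for Hsp90aa1 (-0.06). By CPM in the main table, both HSP90 genes were lowest in library 2, though Hsp90ab1 only narrowly (587.1, 584.4 and 605.4 CPM). In the smaller table, both were highest in library 2. By TPM, Hsp90ab1 was lowest in library 1.

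Hspd1 and Hspe1, whose promoter stretches overlap, had nearly equal levels. Hspd1 was at 112.5, 103.7 and 117.9 TPM and Hspe1 at 99.84, 103.4 and 118.4 TPM, a log2 ratio of 0.06 ± 0.10 that was not larger than the spread. Both were highest in library 3, by 1.22-fold and 1.25-fold over the lowest library (adjusted p = 7.462e-22 and 8.735e-11), and neither was called in the smaller table. Hspd1 stood slightly under its mitochondrial partner Hspa9 in every library, by 0.16 ± 0.05 on the log2 scale.

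The cytosolic chaperonin, CCT, holds 1 copy of each of 8 different subunits per ring, and their mRNAs lay within a factor of about 1.93. Cct8 was at 276.8, 290.1 and 340.1 TPM, Cct5 at 265.5, 277.1 and 304.7 TPM, and Cct3 at 233.2, 253.5 and 271.8 TPM. Cct7 followed at 229.7, 222.2 and 234.2 TPM, Tcp1 at 218.5, 189.1 and 218.3 TPM, Cct2 at 185.1, 178.8 and 203.5 TPM, and Cct4 at 156.9, 150.4 and 180.2 TPM. Cct6a, outside the rule, was at 310.8, 289.2 and 281.3 TPM, the highest subunit in library 1. The lowest was Cct4 in every library, and the ratio of the highest to the lowest subunit was 1.98, 1.93 and 1.89 (1.93 ± 0.0470, SD, n = 3). In order of level, Cct5 stood above Cct3 (log2 ratio 0.16 ± 0.03) and Cct2 above Cct4 (0.22 ± 0.04) by more than the spread. The other neighbours, Cct8 with Cct6a, Cct6a with Cct5, Cct3 with Cct7, Cct7 with Tcp1 and Tcp1 with Cct2, did not. The testis form Cct6b, at 0.390, 0.750 and 1.44 TPM, and the Cct8 relative Cct8l1, at 0.0600, 0.330 and 0 TPM, were not detected by the rule above.

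**Figure D2:**
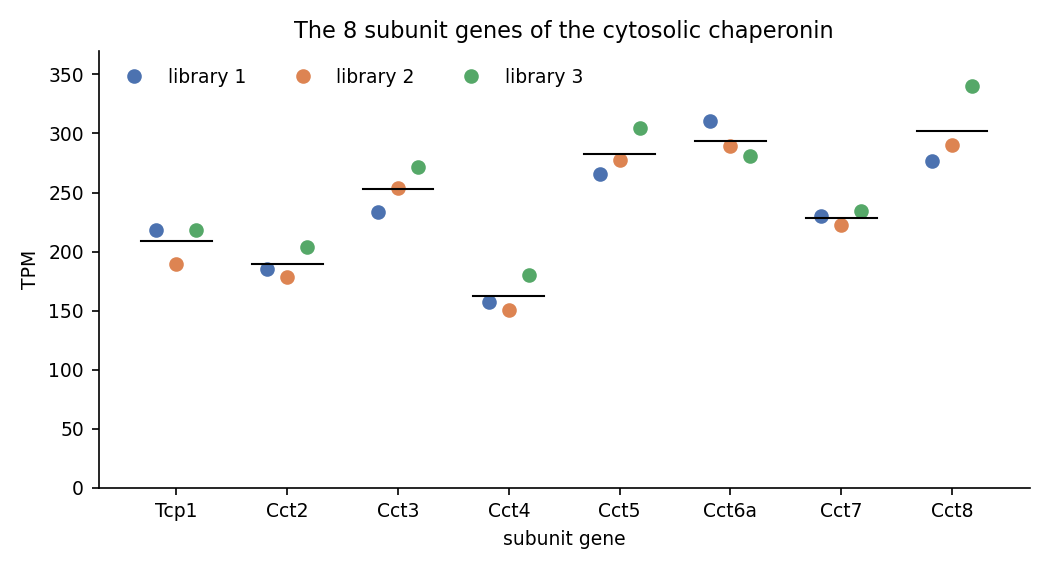
TPM of the 8 chaperonin subunit genes in libraries 1, 2 and 3 (points), with the mean of the 3 libraries (bars). All lie between 150.4 and 340.1 TPM, Cct4 is the lowest in each library, and Cct6a is the one gene lowest in library 3.

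All 8 tested chaperonin members differed between libraries and all 8 were highest in library 3 by CPM, where 34.5% of all genes were. The median difference of library 3 from the mean of the others was 0.27 on the log2 scale, against -0.04 over all genes tested. Ratios of highest to lowest ran from 1.14-fold for Cct7 (adjusted p = 2.011e-16) to 1.29-fold for Cct4 (adjusted p = 2.390e-54), apart from the low Cct6b (3.90-fold). Cct6a, in contrast, was highest in library 1 (1.06-fold, adjusted p = 0.00222), so the order held for 7 of the 8 subunits of the ring. With the GC and length trend removed, all 8 members still stood highest in library 3, by a median of 0.19. In the smaller table the median was 0.04, with 5 of 8 highest in library 3 and 2 of 8 called. By deposited TPM, Tcp1 stood marginally higher in library 1.

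Prefoldin hands unfolded actin and tubulin to the chaperonin, and the phosducin-like proteins assist it. Of 10 such genes, 9 were detected, and 8 of 9 tested differed (79.8% of all genes did), with 7 highest in library 3 (34.5% of all genes were). Pfdn5 was at 408.9, 391.1 and 464.2 TPM, Pfdn6 at 104.4, 117.3 and 127.3 TPM and Vbp1 at 107.8, 100.7 and 101.4 TPM. With the GC and length trend removed, 4 of the 9 were highest in library 3. Pdcl2 had no reads in the main table. Library 3 differences fell with transcript length, with a Spearman correlation of -0.34 over the 67 members and -0.26 over 17179 genes. With GC content the correlations were -0.42 and -0.13, all given as descriptions across genes that share the same libraries.

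**Figure D3:**
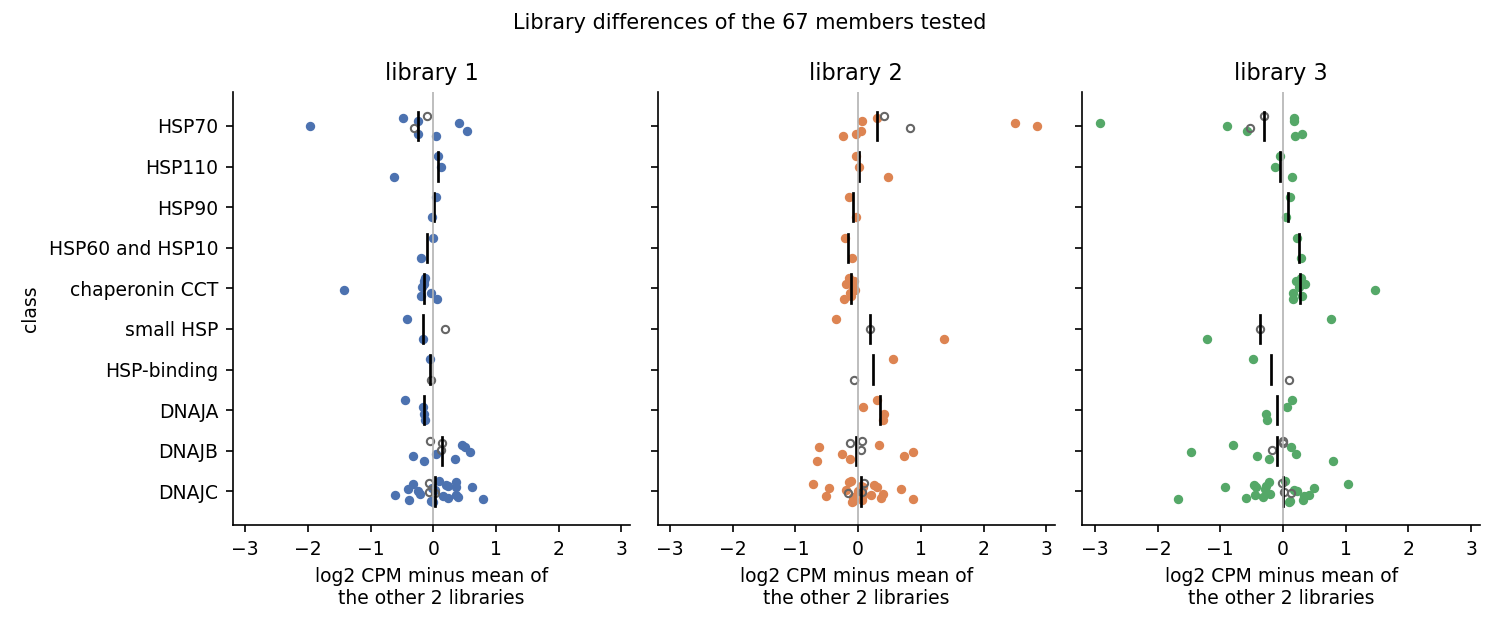
Difference in log2 CPM of each library from the mean of the other 2, for the 67 members tested, by class. Filled points passed the chi-square test, open points did not, and black bars mark class medians. The chaperonin points lie right of 0 in library 3, the DNAJA points lie right of 0 in library 2, and the points farthest right in library 2 are Hspa1b and Hspa1a.

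J proteins bring substrates to HSP70 and trigger its ATPase. Of 42 J-protein genes, 35 were detected, 38 were tested and 32 differed between libraries, near the background of 79.8%. All 4 class A genes, the relatives of bacterial DnaJ, were detected and called, and all 4 were highest in library 2 (32.6% of all genes were). Dnaja1 was at 145.8, 206.3 and 192.7 CPM, low in library 1 and higher in libraries 2 and 3 (1.42-fold, adjusted p = 8.074e-71). Dnaja2 was at 223.9, 249.8 and 248.9 CPM, the mitochondrial Dnaja3 at 46.98, 60.75 and 44.28 CPM, and Dnaja4 at 40.94, 51.96 and 38.66 CPM. The difference of Dnaja2 between libraries 2 and 3 alone did not pass the test (adjusted p = 0.854). The class A order stood in the smaller table too, where all 4 were highest in library 2 and 3 were called. Dnaja2 was not called there (adjusted p = 0.0650, chi-square test). For Dnaja1 the smaller table held only 5.37% as many reads as the main table. By TPM, Dnaja1 and Dnaja2 did not differ beyond the spread (log2 ratio -0.09 ± 0.21).

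Class B was led by Dnajb6, which restrains aggregation of polyglutamine proteins, at 202.3, 175.8 and 161.1 TPM. It was highest in library 1 (1.3-fold by CPM, adjusted p = 2.776e-59), though not called in the smaller table (adjusted p = 0.809). Dnajb1, the heat-inducible HSP40, was at 65.02, 68.56 and 62.91 TPM, and its difference did not pass the test (1.05-fold, adjusted p = 0.101). With the GC and length trend removed it was called, with library 3 highest at 1.17-fold over the lowest. Dnajb1 stood well below both Dnaja1 (log2 ratio 1.42 ± 0.26) and Dnajb6 (1.44 ± 0.16). Of 11 class B genes, 8 were detected and 7 of 10 tested differed (79.8% of all genes did).

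Class C holds J proteins with specialised roles. Dnajc7, a cochaperone of both HSP70 and HSP90, was the highest J gene at 323.7, 412.7 and 439.4 TPM, lowest in library 1 (1.39-fold by CPM, adjusted p = 2.247e-82). Dnajc8, a nuclear protein linked to splicing, was at 164.8, 162.6 and 172.1 TPM, and Dnajc9, a histone chaperone, at 112.3, 107.8 and 107.2 TPM. Dnajc2, the ribosome-bound partner of Hspa14, was at 84.31, 92.70 and 99.70 TPM. The mitochondrial import factors Dnajc15 and Dnajc19 were at 152.8, 129.2 and 98.37 TPM and at 135.9, 103.7 and 125.1 TPM.

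Dnajc5, the cysteine string protein of secretory vesicles, had the second largest chi-square statistic of the members (674.8). It was at 235.7, 251.5 and 161.6 CPM, lowest in library 3 (1.56-fold, adjusted p = 9.335e-146). Dnajc16 was at 17.14, 14.76 and 8.397 CPM, again lowest in library 3 (2.04-fold, adjusted p = 2.252e-21), whereas Dnajc12 was at 2.334, 1.945 and 4.410 CPM and highest there (2.27-fold, adjusted p = 2.097e-08). The difference of Dnajc12 was not called in the smaller table (adjusted p = 0.122). The lowest J genes were Dnajb8, with no read in the main table, Dnajc22 and Dnajc5g. Also not detected were Dnajb3, Dnajb7, Dnajc5b and the clathrin-uncoating Dnajc6.

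Among the 8 small heat shock genes, 2 were detected. Hspb11, in fact a subunit of the intraflagellar transport complex, was at 10, 10.62 and 16.79 TPM, highest in library 3. Hspb6 was at 4.630, 4.510 and 3.340 TPM and did not pass the test (adjusted p = 0.114). Hspb1, the inducible HSP27 and the best known of the class, was listed at 0 TPM in libraries 1 and 2 and at 0.0900 TPM in library 3. Hspb7 and Hspb8 had no read in the main table, where 3 reads would be 0.0939 to 0.106 CPM. Hspb2, Hspb3 and Hspb9 were also not detected. Of the remaining members, Hspbp1, an exchange factor of HSP70, was at 53.65, 52.21 and 48.75 TPM (adjusted p = 0.178), and Hspbap1 at 19.50, 28.06 and 15.85 TPM.

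The heat shock factors themselves were present. Hsf1 was at 80.99, 78.76 and 65.76 TPM, its binding protein Hsbp1 at 157.8, 155.6 and 160.3 TPM, and Hsf2 at 4.270, 3.810 and 5.650 TPM. Hsf3, Hsf4 and Hsf5 were not detected. A list of 20 genes known as HSF1 targets, 14 of them members, was detected for 16 genes, and 17 of 18 tested differed between libraries, against 79.8% of all genes. Of these 18, 2 were highest in library 1, 6 in library 2 and 10 in library 3, while 10 were lowest in library 1 (30.2% of all genes were). Hspa1b, Hspa1a, Hsph1 and Dnaja1 were highest in library 2, as was Fkbp4, whereas Hspd1, Hspe1, Hspa8 and Tcp1 were highest in library 3. Bag3, another target, was at 4.680, 4.590 and 3.270 TPM, lowest in library 3. Hspb1 and Cryab had too few reads to test.

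**Figure D4:**
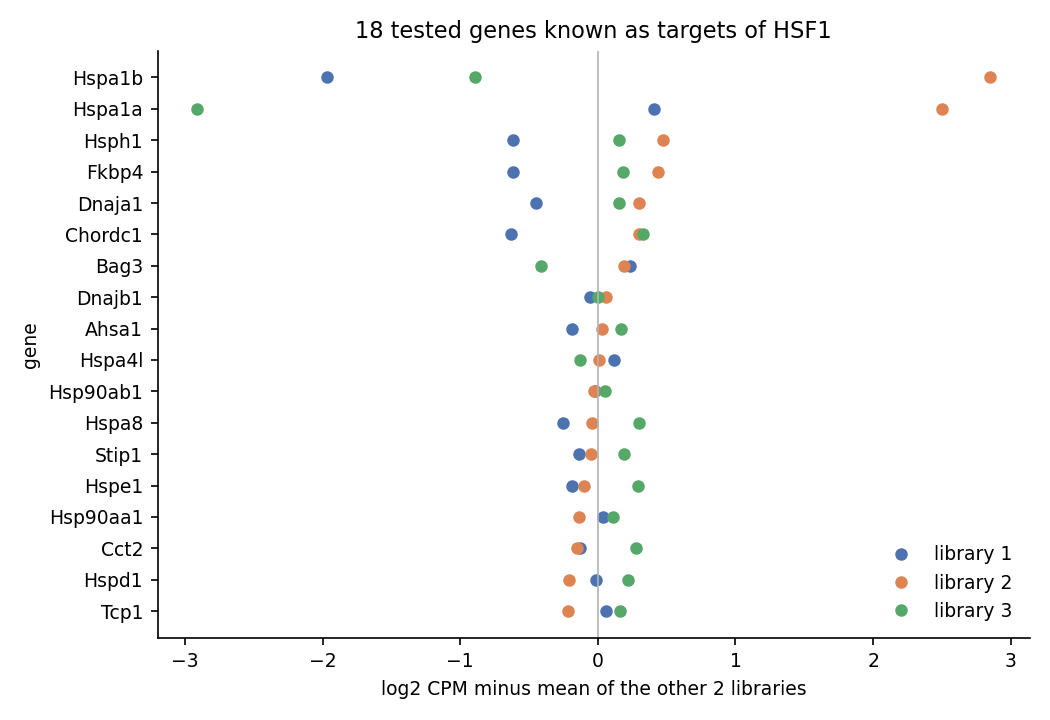
Difference in log2 CPM of each library from the mean of the other 2 for the 18 tested genes of the HSF1 target list, ordered by library 2. Hspa1b and Hspa1a lie far right in library 2, Hsph1, Fkbp4, Dnaja1 and Chordc1 lie left in library 1, and Dnajb1 and the HSP90 genes lie near 0 in every library.

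Cochaperones of HSP90 steer clients to it and pace its ATPase. All 17 listed were detected and 16 differed between libraries (79.8% of all genes did), with 11 of 17 lowest in library 1 (30.2% of all genes were). Fkbp5, an immunophilin induced by glucocorticoids, was at 401.7, 760.6 and 182.2 CPM in the main table, a 4.17-fold range that no HSP90 gene approached. In the smaller table its range was narrower, with 2235, 2683 and 1620 reads in libraries 1, 2 and 3. Cdc37, which loads kinases, was at 175.4, 224.2 and 259.9 CPM (1.48-fold, adjusted p = 2.883e-110). Cdc37l1 was the lowest at 34.31, 38.52 and 34.53 TPM. Fkbp4, at 85.35, 139.4 and 123.3 CPM, and Chordc1, at 73.18, 112.5 and 114.0 CPM, were low in library 1 like Hsph1 and Dnaja1. These last 2 cochaperones were singled out after their values were seen.

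Cochaperones of HSP70 were detected for 11 of 12 genes, and all 11 differed between libraries (79.8% of all genes did). Bag1, an exchange factor, was at 203.6, 180.4 and 195.0 TPM, the ubiquitin ligase Stub1 at 98.14, 115.7 and 106.1 TPM, and Sgta at 76.87, 84.67 and 64.54 TPM. Sgtb was not detected. Partners of mitochondrial chaperones and the proteases beside them were all detected, 10 of 11 differing (79.8% of all genes did), from Clpp at 55.01, 63.76 and 66.58 TPM down to Clpb at 13.47, 8.740 and 12.71 TPM. Yme1l1 stood at 46.38, 51.46 and 44.28 TPM and Htra2 at 44.03, 45.53 and 39.81 TPM. The 8 members counted here as mitochondrial had a median of 109.3 TPM, and 5 of them were highest in library 3 (34.5% of all genes were).

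Hspa5 and Hsp90b1, the endoplasmic reticulum counterparts of Hspa8 and Hsp90ab1, were lower than these. Hspa5, the HSP70 of that compartment, was at 323.3, 302.8 and 341.8 TPM, under Hspa8 by 1.92 ± 0.12 on the log2 scale, and Hsp90b1 was at 199.7, 204.3 and 172.6 TPM, under Hsp90ab1 by 1.07 ± 0.16. Dnajb11 was at 94.19, 91.48 and 90.55 TPM and Dnajb9, the lowest of 8 such genes, at 9.850, 12.22 and 9.750 TPM. Of 17 gene pairs compared, 15 had the same sign in all 3 libraries and a mean log2 ratio beyond 2 SD. The other 2 were Hspd1 with Hspe1 and Dnaja1 with Dnaja2.

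The transcript tables show which annotated forms carry these levels. Forms without a complete reading frame count toward a gene's TPM, and a short form weighs more per read than a long one. Assignment of reads to forms that share exons is an estimate. For 40 members at 20 TPM or more, 1 transcript held 50% or more of the TPM in every library in 25 (62.5%), against 62.6% of 6483 protein-coding genes. The leading transcript was not annotated as protein-coding in 8 of 40 (20%, against 13.2%), and 14 of 40 (35%, against 31.6%) had 20% or more on retained-intron or nonsense-mediated decay forms. The members were near other genes on these measures.

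Hspa8 had 60.5% ± 0.644 of its TPM on the coding transcript Hspa8-202 (60%, 60.3% and 61.2%), with the remainder mostly on short forms such as the retained-intron form Hspa8-204 (15.1% ± 0.568). By reads, its coding forms held 85.6%. Hsp90ab1-201 held 89.1% ± 5.34 of Hsp90ab1 and was lowest in library 3 (83.4%), where the decay form Hsp90ab1-206 had 13.4% against 1.13% and 1.78% in libraries 1 and 2. In Hsp90aa1 the retained-intron form Hsp90aa1-206 had 27.3% ± 4.92. Hspa4 was led by the processed form Hspa4-203, with 46.1% ± 1.63.

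Among chaperonin genes, the decay form Cct8-209 held 47.0% ± 2.07 of Cct8 and Cct7-202 held 36.6% ± 0.799 of Cct7. Cct8, the subunit with the highest mean gene level, fell to a mean of 149.7 TPM ± 23.2 when coding forms alone were summed. That was below the means of Cct5 at 264.9 TPM ± 18.3, Cct3 at 190.0 TPM ± 8.91, Cct2 at 178.2 TPM ± 16.2 and Tcp1 at 163.7 TPM ± 11.5. In library 3, however, Cct8 stood above Tcp1 by coding forms (176.4 and 172.4 TPM). Retained introns took 24.7% of Cct3 and 21% of Tcp1. All forms of Cct6a were annotated as non-coding, led by Cct6a-202 with 40.8% ± 0.777.

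**Figure D5:**
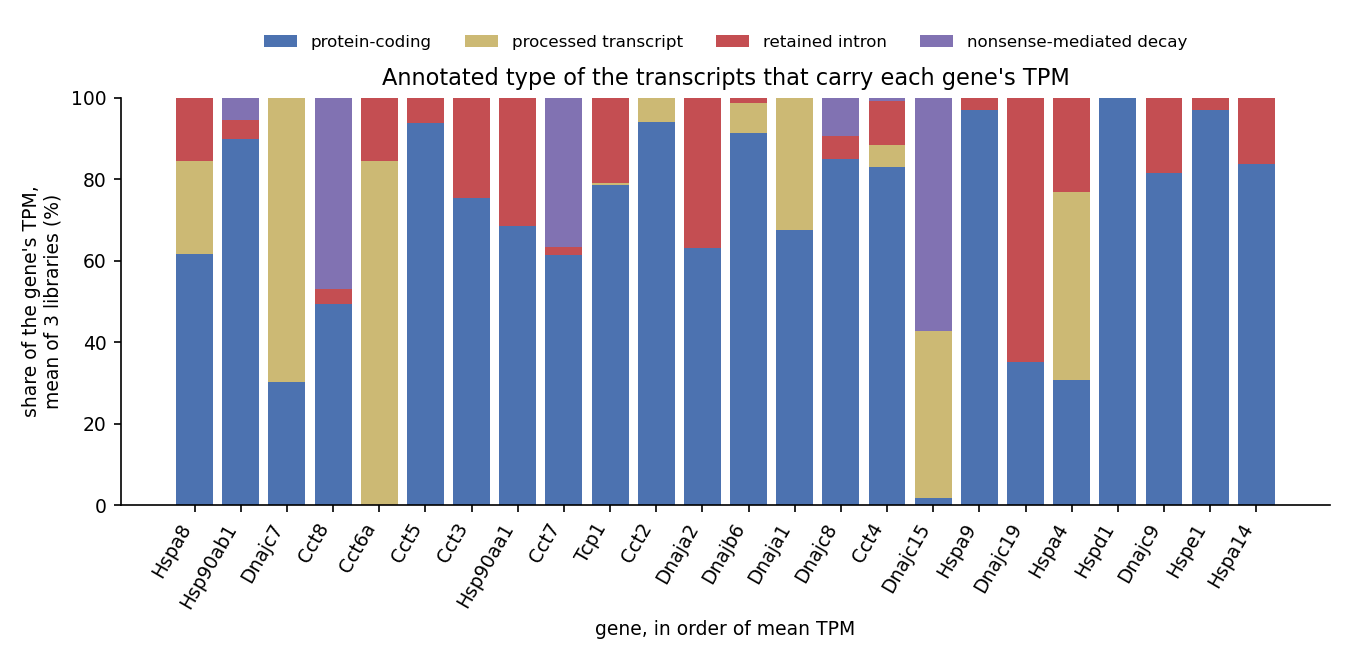
Share of each gene's TPM, as the mean of 3 libraries in percent, on transcripts annotated as protein-coding, processed transcript, retained intron or nonsense-mediated decay, for the 24 highest genes including Cct6a. Coding forms hold nearly all of Hspd1, Hspa9 and Cct5, and under 40% of Dnajc7, Dnajc15, Dnajc19 and Hspa4.

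The order of the J proteins depended on this. By gene TPM, Dnajc7 led, but its coding forms summed to 118.6 TPM ± 18.7 (30.3% of the gene), place 5 by mean. By mean coding TPM, Dnajb6 led with 164.2 TPM ± 22.5, ahead of Dnajc8 with 141.4 TPM ± 5.03. In library 3, however, Dnajc8 stood above Dnajb6 (147.1 and 145.8 TPM). Places 3 to 5, held by Dnaja1 (120.8 TPM ± 23.5), Dnaja2 (118.8 TPM ± 6.51) and Dnajc7, lay closer together than their SDs. Dnajc15 went from place 6 of 22 to the last, with 2.143 TPM ± 0.495 on its only coding form and 57.4% of its TPM on the decay form Dnajc15-201. By reads, 16.9% of Dnajc15 was coding. Dnajc19 had 64.8% ± 2.53 on a retained-intron form of 419 bases.

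Further members with 20% or more on such forms were Dnaja2 (37.0% retained intron), Dnajc1 (52.6% decay), Dnajc11 (46.2% retained intron), Dnajc13 (49.5% retained intron) and Dnajc4 (20.2% retained intron). In Dnajc5 the decay form Dnajc5-204 held 29.8%, 45.3% and 47.9% in libraries 1, 2 and 3, while the coding form Dnajc5-203 held 44.6%, 27.9% and 16.2%. Library 1 was thus highest for the coding form, and library 3, lowest for the gene, was lowest for it too. In Hsph1, coding forms held 75.6%, 86.6% and 84.6%, and the share of its leading form was 29.9% in library 1 against 57.0% and 59.9% in libraries 2 and 3.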

How the data were processed

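Poly(A) RNA was sequenced in 3 libraries of 1 group. The main gene and transcript tables, 1 per library, held expected counts, TPM and FPKM deposited by the authors, on mm10 with GENCODE M21 per the deposited library notes. Their column layout is that of RSEM, and the version is not given in the sources used here. A smaller table deposited by the authors held whole-number read counts on GENCODE M4, with no counter or filters stated. It was used only as an alternative. Entries that name no gene held 0.166% to 0.229% of reads and were left out of the tests.

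The labels' protocols name poly(A) selection and shearing and give no strand, so overlapping and antisense genes cannot be told apart. Expected counts were rounded. With 1 group no quasi-likelihood contrast can be fitted, so a chi-square test (2 degrees of freedom) compared the 3 counts of each gene with a mean of 10 or more reads with TMM library sizes (edgeR 4.0.16, R 4.3.3), adjusted by Benjamini-Hochberg over 17190 genes at 0.05. Log2 differences used CPM after 0.5 was added to each read count. Pair ratios used TPM plus 1, which understates the ratios of low genes. A pair counted as differing beyond the spread if its 3 ratios had the same sign and their mean exceeded 2 SD. The test was checked on simulated data. Alternatives were DESeq2 1.42.0 size factors, other filters, pseudocounts and units, the smaller table, removal of a GC and length trend, and leaving out each library.

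Members, lists and pairs were chosen with earlier results of these data known. Genes named were all members of the HSP70, HSP110, HSP90, HSP60, HSP10 and chaperonin classes, detected small heat shock genes, the 10 highest and 3 lowest J genes, members with the 10 largest chi-square statistics, those of 50 or more reads with 2-fold differences, both genes of each pair, members with 20% or more on retained-intron or decay forms, and from each list the 3 highest, the lowest and those not detected. Other members were named to account for every class. A list gene that this rule names is not reported here. Promoter sequences are from RefSeq (GRCm38.p6).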

Additional observations from a re-analysis of the deposited data

How the results depend on the processing

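Depth set a floor of 3 reads, 0.0939 to 0.106 CPM, and the 3 technical libraries leave no measure of variation between animals. In the smaller table, 33 of 62 tested members differed between libraries (53.2%, with 64.9% of its genes), against 57 of 67 in the main table, and the median chaperonin difference in library 3 was 0.04. Its log2 differences turned for Hspa8 (-0.05), Hsp90aa1 (-0.16) and Hsp90ab1 (-0.06), and its ratios, not divided by length, turned for Hspa8 to Hsp90ab1 (-3.02), Hspa8 to Hspa9 (-2.47), Hspa8 to Hspa5 (-2.98), Dnaja1 to Dnajb1 (-2.07), Dnajb6 to Dnajb1 (-2.47) and Hsp90ab1 to Hsp90b1 (-0.04). The smaller table held under 10% of the main table's reads for 6 of 35 members of 1000 reads or more, and the cause was not tested. Removing the GC and length trend moved the median of all members to -0.10 in library 1 and -0.02 in library 3 and turned Hsp90aa1 (-0.06). Deposited TPM put 25 members highest in library 1, against 15 by CPM. Posterior mean TPM gave a members' share of 0.601%, and coding transcripts alone, of 7 subunits, a chaperonin ratio of 2.02.

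Leaving out 1 library gave 40 to 49 members differing, 6 to 16 by 1.5-fold or more, 58 or 59 detected, a share of 0.634% to 0.653%, a chaperonin ratio of 1.91 to 1.95, 15 pairs beyond the spread and 25 to 27 members with a leading transcript. The analyses of 1.5-fold differences under alternatives, and those counting Cct6a, were chosen after seeing the data. Of 198 values of named members under alternatives, 175 kept direction and side of the threshold, 17 lost the call, 2 gained it and 4 turned. Changing the minimum of reads left a gene's counts as they were, so those values were bound to stay nearly the same. Leaving out a member's own highest library was not among the 198. No paired analysis was possible because there was 1 group only.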
